A study of Mus musculus with 8 samples.

Results

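The study's spleen table was read for 9 genes that mark mast cells, basophils and blood progenitors. They are 3 progenitor genes (Kit, Cd34 and Gata2), 4 genes of granule contents (Hdc, Cpa3, Mcpt8 and Prss34) and 2 chains of the high-affinity receptor for immunoglobulin E, IgE (Fcer1a and Ms4a2). They were taken by symbol and gave 11 of the 23517 transcripts, or 9 of the 17738 gene symbols, in the table. Spleens of 8 untreated male C57BL/6 mice aged 8 to 12 weeks were compared, 4 wild-type and 4 of the genotype TTPΔARE, with 1 RNA-seq library per animal. TTP, tristetraprolin, is encoded by Zfp36 and promotes decay of mRNAs with AU-rich elements. In TTPΔARE mice the Zfp36 gene has lost the AU-rich stretch of its own mRNA, a germline change, and the labels do not say whether the mice carried 1 or 2 copies. The series addressed how the spleen transcriptome depends on TTP. Nothing in the labels ties samples to litters, cages or days.

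Kit is the receptor for stem cell factor, encoded by Kitl. Stem cells, early erythroid and myeloid progenitors and mast cells carry it. Most blood cells lose Kit as they mature, while mast cells keep it. Basophils and mast cells bind IgE through a receptor whose α chain is Fcer1a and whose β chain is Ms4a2, and on contact with antigen they release histamine and proteases. The mouse spleen has basophils and few mast cells, and its red pulp also makes blood cells.

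Expression was given as FPKM, fragments scaled by transcript length and library depth, so levels can be set side by side per length. Depth worked back from the steps between low values was 28400000 to 32300000 fragments per library. Zfp36 stood at 37.9, 42.1, 44.9 and 36.4 FPKM in wild-type replicates 1 to 4 and at 57.5, 46.1, 55.1 and 52.9 FPKM in the TTPΔARE replicates, higher without overlap (limma adjusted p = 0.0323). The T cell gene Cd3e (19.5 to 23.5 FPKM) and Spic (22.8 to 35.8 FPKM), of red pulp macrophages, were present in all 8 libraries. In whole spleen RNA, fewer cells of a type and less RNA per cell cannot be told apart.

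The sequences just before the annotated start sites used here differ between these genes in 1 GATA motif and in the string CANNTG given below. The GATA motif was chosen with the values already seen. GATA factors, Gata2 among them, bind such motifs. The letters AGATAA, on either strand, occurred within 250 bases before a start site in 4 of the 6 granule and IgE receptor genes and in 0 of the 3 progenitor genes. Of all 32851 such windows 3281 held it. The 3 windows printed here show the most matches, a single match and none, from RefSeq (GRCm38.p6), 5′ to 3′ on the gene's strand, with AGATAA or its reverse complement in capitals.

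Ms4a2, chr19:11623720-11623969, minus strand: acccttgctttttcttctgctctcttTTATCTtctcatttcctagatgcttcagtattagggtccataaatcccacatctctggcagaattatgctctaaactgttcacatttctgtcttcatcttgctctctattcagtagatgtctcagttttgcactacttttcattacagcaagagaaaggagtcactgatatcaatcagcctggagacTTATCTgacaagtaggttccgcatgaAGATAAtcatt
Prss34, chr17:25298144-25298393, plus strand: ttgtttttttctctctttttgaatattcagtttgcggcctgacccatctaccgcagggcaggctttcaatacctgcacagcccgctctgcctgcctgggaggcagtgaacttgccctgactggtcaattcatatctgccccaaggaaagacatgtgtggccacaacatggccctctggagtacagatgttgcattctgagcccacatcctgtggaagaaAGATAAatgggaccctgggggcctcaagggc
Kit, chr5:75574737-75574986, plus strand: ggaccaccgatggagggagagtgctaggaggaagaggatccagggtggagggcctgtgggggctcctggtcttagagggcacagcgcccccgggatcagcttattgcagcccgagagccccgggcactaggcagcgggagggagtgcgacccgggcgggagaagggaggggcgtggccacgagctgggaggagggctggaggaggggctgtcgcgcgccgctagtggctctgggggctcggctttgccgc

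Ms4a2 had 3 matches, at -224, -37 and -11 from the start site, and Prss34 had 1 at -31. Cpa3 (at -46) and Fcer1a (at -92) had 1 each, while Mcpt8 and Hdc had none in this window. The start sites used are not always at the outer end of the gene. The windows of Mcpt8 (56085198 to 56085447) and Hdc (126618679 to 126618928) lie inside the gene spans given below. The Ms4a2 window, from 11623720, overlaps its gene, which runs to 11623790, and its matches at -37 and -11 lie in the overlap. Another 8 strings were counted in the same windows, all on both strands. The string GATAA overlaps the match above and was in the same 4 of 6 genes (22.6% of windows). TGATAA was in 0 of the 9 genes, against 7.9% of windows. The E-box CANNTG was in 5 of 6 granule and IgE receptor genes and 0 of 3 progenitor genes, against 66.2% of windows. Its form CACCTG (17.2%) was in 1 of the 6 genes. The form CAGCTG (13.0%) was in 2 of the 6 and the form CATGTG (12.3%) also in 2, and none of these forms in the 3. CCACCC (28.1% of windows) was in 1 of the 3 and 0 of the 6, and TTCCTC (23.3%) in 1 of the 3 and 2 of the 6. These are matches of letters. The TTP site TATTTAT was in the longest annotated 3′ untranslated region of 0 of the 9 genes, against 3362 of 11220 tested genes with such a region (GENCODE M21). Those regions were short in the granule genes, 82 bases for Mcpt8 and 294 for Hdc, and longer in Kit, with 2177 bases, and Ms4a2, with 1950.

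Kit mRNA rose in TTPΔARE spleens, and the other progenitor genes had higher means without passing the test. Kit has 2 transcripts in the table with nearly the same sequence, so they are 1 measurement rather than 2. The first (NM_001122733) stood at 1.99, 2.83, 2.76 and 2.22 FPKM in wild-type and at 3.54, 3.44, 3.80 and 4.0 FPKM in TTPΔARE replicates 1 to 4. Every TTPΔARE spleen was above every wild-type spleen. The difference on log2(FPKM + 0.5) was 0.52 with an SE of 0.098, 1.43-fold on that scale (limma adjusted p = 0.0174).

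The second Kit transcript (NM_021099) stood at 2.23, 2.61, 3.14 and 2.30 FPKM in wild-type and at 3.36, 3.51, 4.32 and 4.14 FPKM in TTPΔARE. Again the groups did not overlap, and the difference was log2 0.50 (SE 0.106, limma adjusted p = 0.0274). It was the higher of the pair in 6 of 8 spleens. Summed over both, Kit went from 5.02 ± 0.781 to 7.53 ± 0.698 FPKM (SD, n = 4 each; log2 0.55, limma adjusted p = 0.0179). An exact two-sided permutation test of this sum gave p = 0.0286, the smallest that 70 assignments allow. Kit lies on chromosome 5 at 75574987 to 75656722 (GRCm38, the build named mm10).

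The Kit call rested on particular spleens. For the first transcript the limma adjusted p was 0.0573 with wild-type replicate 4 left out, 0.0629 with TTPΔARE replicate 3 left out and 0.0570 with TTPΔARE replicate 4 left out. For the second it was 0.0629 and 0.0836 with wild-type replicate 1 or 4 left out, and 0.0982 and 0.0848 after dropping TTPΔARE replicate 3 or 4. The log2 difference stayed between 0.44 and 0.58 in all 16 of these refits, 8 for each transcript.

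Gata2 encodes a transcription factor of stem cells, progenitors and mast cells. It stood at 2.17, 2.25, 2.08 and 1.96 FPKM in wild-type and at 2.69, 2.37, 2.66 and 2.66 FPKM in TTPΔARE, without overlap. The difference was small and narrow, log2 0.24 with an SE of 0.068, and did not pass over all transcripts (limma adjusted p = 0.0737). Taken alone, an exact two-sided permutation test gave p = 0.0286, again the smallest possible. Gata2 lies on chromosome 6 at 88193891 to 88207032.

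Cd34 encodes a sialomucin of progenitors that endothelial cells also carry. Its higher transcript (NM_133654) stood at 2.06, 2.20, 1.51 and 1.82 FPKM in wild-type and at 2.61, 2.0, 2.66 and 3.24 FPKM in TTPΔARE. Of the TTPΔARE spleens, 3 were above all wild-type spleens, and replicate 2 was inside their range. The difference was log2 0.38 with an SE of 0.125 and did not pass (limma adjusted p = 0.117). Without TTPΔARE replicate 2 it did pass (log2 0.48, adjusted p = 0.0463). The other Cd34 transcript went from 1.87 ± 0.300 to 2.31 ± 0.317 FPKM (SD, n = 4 each; log2 0.25, limma adjusted p = 0.216). Cd34 lies on chromosome 1 at 194938821 to 194961292.

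**Figure D1:**
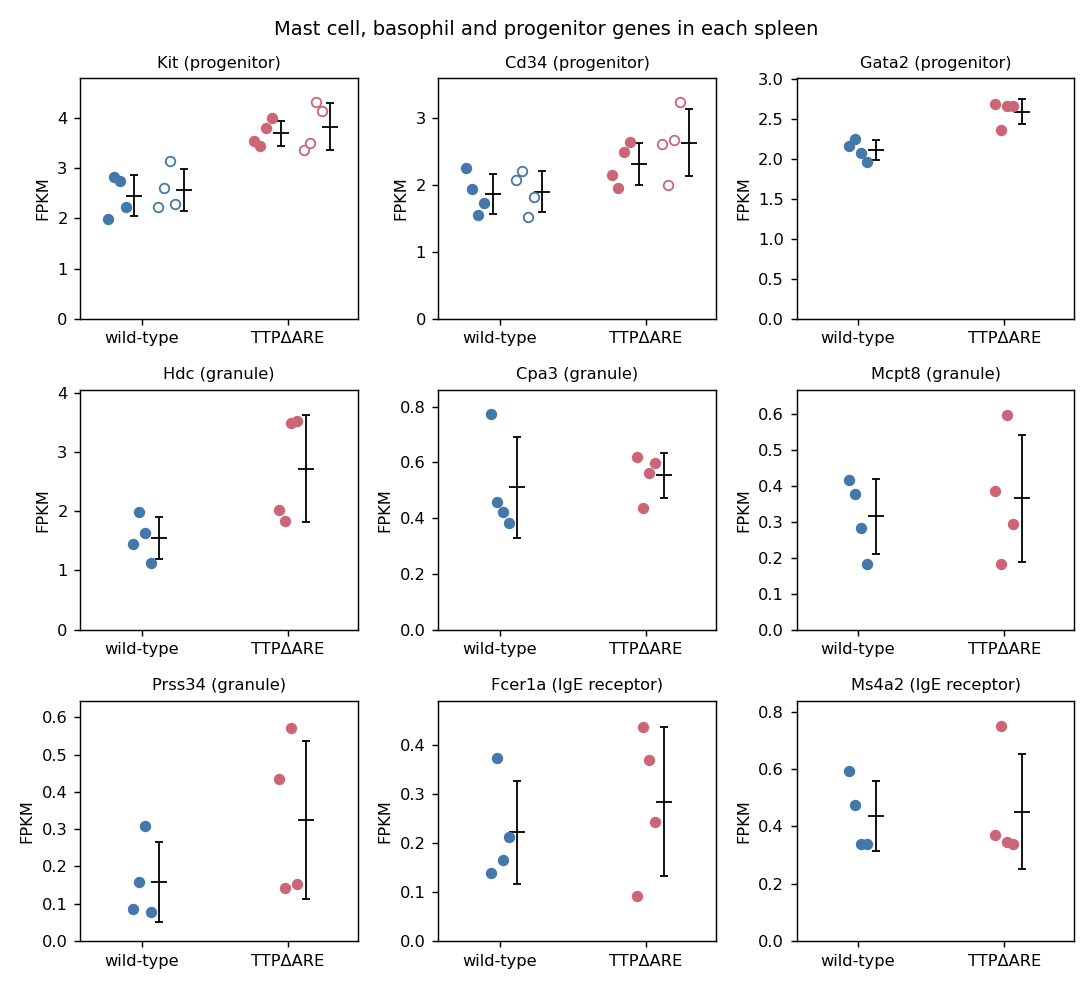
FPKM of each gene (y axis, from 0) in 4 wild-type (blue) and 4 TTPΔARE spleens (red), with mean and SD in black; open points in the Kit and Cd34 panels are the second transcript, NM_021099 and NM_133654. Kit and Gata2 show no overlap between groups, while all 6 granule and IgE receptor genes overlap.

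Among the granule genes Hdc was the most abundant, and the others were near the lower limit of the table. Hdc encodes histidine decarboxylase, which makes histamine. It stood at 1.46, 1.98, 1.64 and 1.12 FPKM in wild-type and at 2.03, 1.84, 3.49 and 3.52 FPKM in TTPΔARE. TTPΔARE replicates 3 and 4 were well above all others, while replicates 1 and 2 were near the highest wild-type value. The log2 difference of 0.62 was the largest of the 9 genes, but its SE was 0.189 and it did not pass (limma adjusted p = 0.0939). Without TTPΔARE replicate 2 it passed (log2 0.76, adjusted p = 0.0484), and over all 8 such refits it ranged from 0.50 to 0.76. Hdc lies on chromosome 2 at 126593659 to 126624025.

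Cpa3, the mast cell carboxypeptidase, showed no detectable difference. It stood at 0.775, 0.459, 0.422 and 0.384 FPKM in wild-type and at 0.619, 0.437, 0.563 and 0.596 FPKM in TTPΔARE. The highest value of all was a wild-type one, in replicate 1. The log2 difference was 0.07, with a 95% interval from -0.20 to 0.34 (limma adjusted p = 0.787). Cpa3 lies on chromosome 3 at 20215616 to 20242209.

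The other 4 genes had a mean under 0.5 FPKM and were not in the limma test. For these and Cpa3 the fragments behind each value could be worked back, to within 0.021 of a whole fragment or of a step of 0.5. Prss34, a serine protease of basophils on chromosome 17 at 25298394 to 25300168, had 3, 6, 11 and 3 fragments in wild-type and 17, 5, 22 and 6 in TTPΔARE. In FPKM these were 0.0870, 0.157, 0.309 and 0.0770 against 0.435, 0.142, 0.571 and 0.153. TTPΔARE replicates 1 and 3 were above all wild-type spleens, and replicates 2 and 4 were inside the wild-type range. Group totals were 23 fragments (95% Poisson interval 14.6 to 34.5) and 50 (37.1 to 65.9), intervals that cover counting error only. Over animals the log2 difference was 0.31 and did not pass (exact two-sided permutation p = 0.229, n = 4 each).

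Mcpt8, a protease that marks mouse basophils, did not differ beyond the spread between animals. It had 10, 10, 7 and 5 fragments in wild-type and 10.5, 4.5, 16 and 8 in TTPΔARE. TTPΔARE replicate 3 was the highest of all 8, and replicate 2 was level in FPKM with the lowest wild-type spleen, at 0.184, so the groups overlapped. Totals were 32 (21.9 to 45.2) and 39 (27.7 to 53.3) fragments, and the log2 difference was 0.07 (exact two-sided permutation p = 0.686, n = 4 each). Mcpt8 lies on chromosome 14 at 56082163 to 56085499, and reads it may share with other mast cell protease genes make its level uncertain.

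Neither IgE receptor chain differed beyond the spread between animals. Fcer1a, which binds IgE, had 4, 12, 5 and 7 fragments in wild-type and 3, 13, 12 and 8 in TTPΔARE, totals of 28 (18.6 to 40.5) and 36 (25.2 to 49.8). Its lowest and highest values were both in TTPΔARE spleens (log2 0.11, exact two-sided permutation p = 0.600, n = 4 each). Ms4a2, the chain that amplifies the signal, had 17, 15, 10 and 11 fragments in wild-type and 12, 22, 11 and 11 in TTPΔARE. TTPΔARE replicate 2 stood alone at 0.751 FPKM, and the other 3 TTPΔARE spleens were at 0.338 to 0.370 FPKM. Totals were 53 (39.7 to 69.3) and 56 (42.3 to 72.7) fragments, with a log2 difference of 0.01 (exact two-sided permutation p = 0.914). Fcer1a lies on chromosome 1 at 173221269 to 173227232 and Ms4a2 on chromosome 19 at 11615517 to 11623790.

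**Figure D2:**
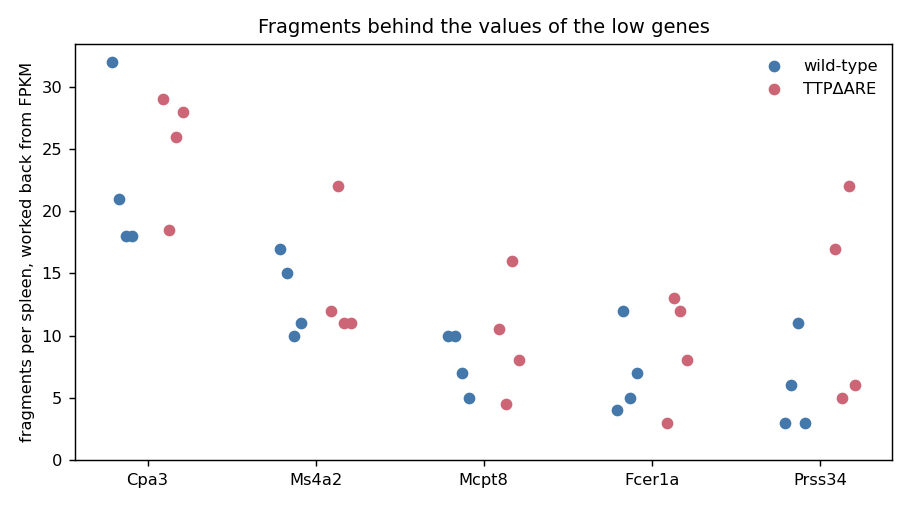
Fragments per spleen (y axis, from 0), worked back from FPKM, for the 5 genes with the lowest levels in wild-type (blue) and TTPΔARE (red) spleens. Values run from 3 to 32 fragments, and the groups overlap for each gene.

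Set by role, the progenitor genes had the higher levels and the larger median difference, though Hdc (log2 0.62) and Prss34 (0.31) had larger ones than Gata2 (0.24). With 1 transcript per gene, that of the higher mean, the 3 progenitor genes had means of 2.26 to 3.20 FPKM and a median log2 difference of 0.38. The 6 granule and IgE receptor genes had means of 0.241 to 2.13 FPKM and a median log2 difference of 0.09. The median over all transcripts was -0.001. All 9 differences were above 0, against 51.0% of tested transcripts, though 4 of the 9 genes were below the filter of that share. The differences of Ms4a2 (0.01), Mcpt8 (0.07) and Cpa3 (0.07) were small. Those of Ms4a2 and Mcpt8 changed sign under some alternatives. Averaged on the log2 scale, the progenitor genes stood at 1.33 to 1.51 in wild-type and 1.61 to 1.93 in TTPΔARE spleens, without overlap. The granule and IgE receptor genes stood at -0.26 to 0.04 and 0.03 to 0.31, with overlap. No test was made of the difference between the roles. The scale with 0.5 added also shrinks changes of genes as low as Prss34, whose ratio of group means was 2.06.

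Of the 11 transcripts, 7 from 5 genes passed the filter and were tested. By limma 2 of the 7, both of Kit, rose and 0 fell, against 2.01% and 1.99% of all 16608 tested transcripts. At an unadjusted p under 0.05, 6 of the 7 were higher and 0 lower, where 11.6% of all tested transcripts were higher. Groups did not overlap, with TTPΔARE higher, for 3 of the 7, against 6.53% of all, and with TTPΔARE lower for 0 of the 7, against 5.99%. Since Kit and Cd34 each count as 2 transcripts here, the 7 are not independent.

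**Figure D3:**
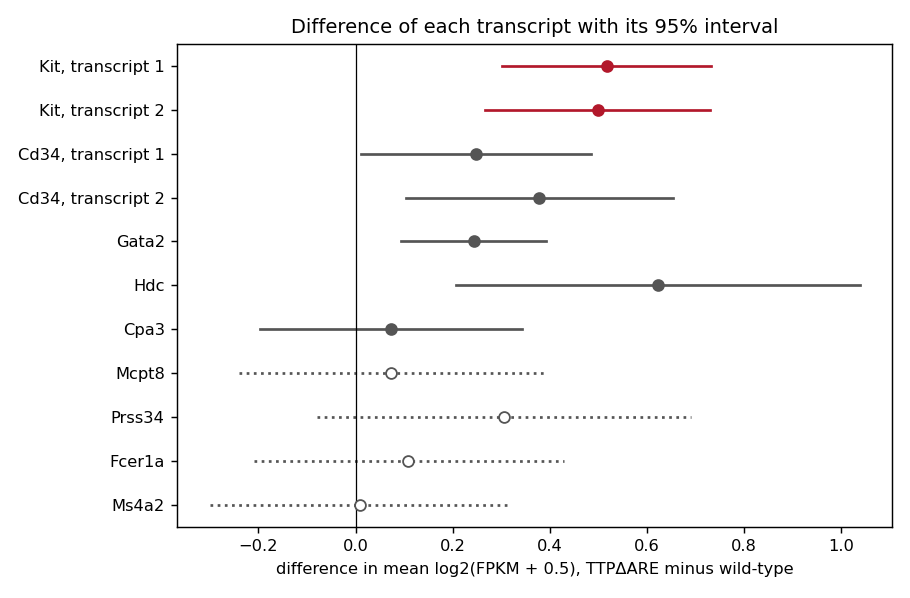
Difference in mean log2(FPKM + 0.5), TTPΔARE minus wild-type (x axis), of each transcript with its 95% interval from limma; red marks an adjusted p under 0.05, and open points with dotted lines are genes below the filter, from the fit without a filter. Only the 2 Kit transcripts, at 0.52 and 0.50, are red, and the intervals of Cpa3 and the 4 lowest genes include 0.

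Markers of red cell precursors were also higher on average in TTPΔARE spleens. Of 26 erythroid markers all 26 had a positive difference and 4 rose (Hbb-b1, Hba-a1, Alas2 and Bpgm), with a median of log2 1.19. Of all tested transcripts 51.0% had a positive difference and 2.01% rose. Their mean on log2(FPKM + 0.5) was 2.15, 2.05, 3.78 and 2.98 in wild-type and 3.79, 3.35, 4.36 and 4.33 in TTPΔARE replicates 1 to 4. Their summed level, most of it from Hbb-b1 and Hba-a1, was 2751.5 to 4983.1 FPKM in wild-type and 6486.5 to 10177.6 FPKM in TTPΔARE. None of the 26 was at 0. With this mean as a covariate the Kit differences were log2 0.40 and 0.27 and did not pass (limma adjusted p = 0.383 and 0.550), nor did any transcript pass upward. Under this covariate Gata2 stood at log2 0.255 and Hdc at 0.433 (limma adjusted p = 0.488 and 0.675). The higher Cd34 transcript stood at log2 0.448 under it, against 0.378 without it, and the other at 0.321, against 0.248. Neither passed (limma adjusted p = 0.486 and 0.581). Among the genes below the filter Prss34 stood at log2 0.038 under it, Fcer1a at 0.231 and Ms4a2 at 0.347. The median of the progenitor genes was then log2 0.27, the value of the second Kit transcript. That of the granule and IgE receptor genes was 0.20, so the medians were closer together than without the covariate. Wild-type replicate 3 had a higher erythroid mean on the log2 scale than TTPΔARE replicate 2 but a lower sum of these markers, 3150.6 against 6486.5 FPKM. Hbb-b1, Hba-a1, Alas2 and Bpgm were lower in this wild-type spleen. The other listed markers were higher in it, such as Gata1 (5.16 against 2.58 FPKM) and Klf1 (5.03 against 2.20 FPKM). Kit of wild-type replicate 3, summed over both transcripts, was 5.90 against 6.95 FPKM. Pearson r with the erythroid mean was taken over the 8 spleens. For Kit and Cd34 only the transcript of the higher mean was used, which is the second Kit transcript. The erythroid mean had an r of 0.88 with this Kit transcript, 0.67 with Hdc, 0.64 with Prss34 and 0.62 with Gata2. It was 0.44 with Cd34 and -0.51 with Ms4a2. These values share libraries and genotype. After subtracting group means, r was 0.73 for the second Kit transcript, 0.30 for Hdc and 0.47 for Prss34. For Gata2 r was then -0.09, for Cd34 -0.18 and for Ms4a2 -0.77. For Cpa3, Mcpt8 and Fcer1a it lay between -0.29 and 0.12 in both forms.

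**Figure D4:**
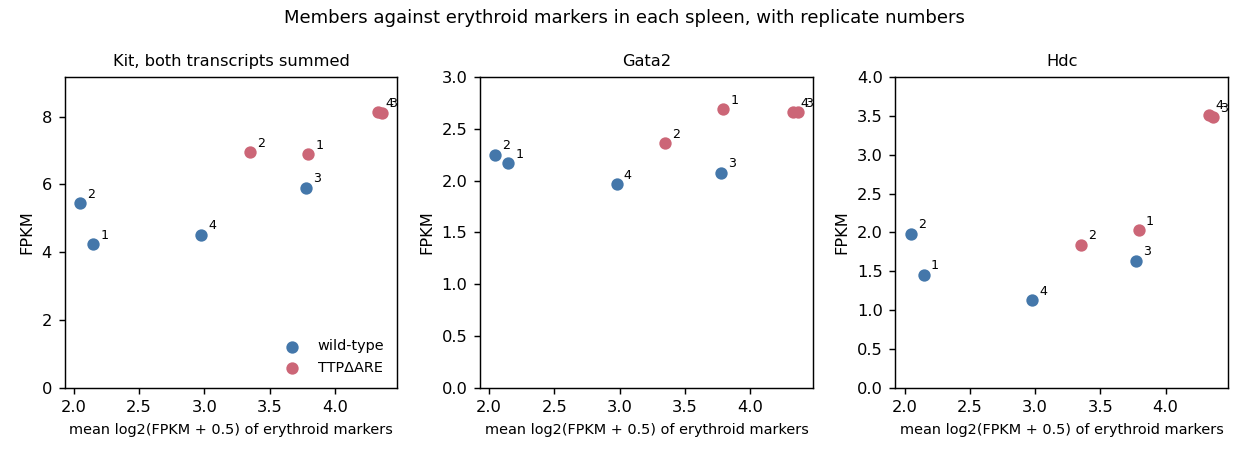
FPKM of Kit (both transcripts summed), Gata2 and Hdc (y axes, from 0) against the mean log2(FPKM + 0.5) of 26 erythroid markers (x axis) in wild-type (blue) and TTPΔARE (red) spleens, numbered by replicate. Wild-type replicate 3 and TTPΔARE replicate 1 have nearly the same erythroid mean, 3.78 and 3.79, with Kit at 5.90 and 6.90 FPKM. Their summed erythroid markers, mostly Hbb-b1 and Hba-a1, were 3150.6 and 7112.5 FPKM.

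Some markers of other cells that may carry these mRNAs also passed the test. The summed levels in FPKM given here overlapped between groups, but the log2 mean of the endothelial markers did not. Over all tested transcripts 2.01% rose and 1.99% fell. Of 11 tested endothelial markers 3 rose (Kdr, Sox18 and Esam). At an unadjusted limma p under 0.05, 6 were higher, against 11.6% of all tested transcripts. Of the 12 listed, 11 had a positive difference (median log2 0.21), against 51.0% of tested transcripts. Their summed level was 101.4 to 118.4 FPKM in wild-type and 116.7 to 126.1 FPKM in TTPΔARE. Their mean on log2(FPKM + 0.5) was 2.41 to 2.61 and 2.68 to 2.75, without overlap. Of 12 tested megakaryocyte markers 2 rose (Itgb3 and Treml1), and 11 were higher at an unadjusted limma p under 0.05. All 13 listed had a positive difference, with a median of log2 0.58. Their sum was 55.1 to 105.1 and 75.8 to 125.9 FPKM. Neutrophil markers summed to 113.2 to 306.7 FPKM in wild-type and 161.6 to 281.0 FPKM in TTPΔARE, with Mmp8 and Retnlg rising. In TTPΔARE replicates 3 and 4, where Hdc was high, the neutrophil sums were 277.1 and 281.0 FPKM, against 180.2 and 161.6 FPKM in replicates 1 and 2. Most of each sum came from S100a8 and S100a9. Ngp, Camp, Ltf and Cd177 were lower in TTPΔARE replicate 4 than in replicate 1, while the other listed neutrophil markers were higher. Wild-type replicate 3 had the highest neutrophil sum with Hdc at 1.64 FPKM. Of 8 tested eosinophil markers 1, Prg3, fell, while 7 of the 9 listed had a positive difference (median log2 0.24). Prg2, the major basic protein gene, stood at 8.60 ± 4.36 and 16.0 ± 3.13 FPKM without passing (log2 0.97, limma adjusted p = 0.0958). The eosinophil sum was 33.9 to 56.0 and 44.6 to 58.1 FPKM. Of 10 tested T cell and innate lymphoid markers 1, Il7r, rose and 0 fell. At an unadjusted p under 0.05, 3 of the 10 were higher and 3 lower, where 11.6% of all tested transcripts were higher. Of 10 tested stromal markers 1 rose and 1 fell. The part of these cells in the member values was not tested.

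Genes specific to mature mast cells were sparse. Of 8 such proteases and receptors, picked after their values were seen, 7 had a mean under 0.5 FPKM and 5 never exceeded 0.1 FPKM, among them Mcpt1, Mcpt2 and the receptor Mrgprb2. Tpsg1 and Mrgprb1 were listed at 0 in 7 of 8 spleens. The chymase Cma1 was the highest at 0.808 ± 0.0920 and 0.770 ± 0.34 FPKM (SD, n = 4 each). TTPΔARE replicate 2, the spleen with the most Ms4a2 and Fcer1a, also had the highest value of the protease Mcpt4 (1.04 FPKM, against 0.0630 to 0.471 in the others) and of the tryptase Tpsb2 (0.665 FPKM, against 0.0570 to 0.292). Its basophil proteases were low, Mcpt8 at 0.184 and Prss34 at 0.142 FPKM. Other mast cell genes were not high in this spleen. Its Cpa3 (0.437 FPKM) and Hdc (1.84 FPKM) were the lowest of the TTPΔARE group. Its Cma1 was at 0.698 FPKM, below the 1.23 FPKM of TTPΔARE replicate 4. By limma 0 of 9 tested mast cell genes passed, and 0 had an unadjusted p under 0.05. Their median over the 19 in the table was log2 0.04. The list also holds genes with higher levels that are not specific to mast cells, such as Srgn, a granule proteoglycan, at 106.0 ± 9.3 and 96.9 ± 5.81 FPKM. It summed to 121.5 to 141.9 FPKM in wild-type and 114.6 to 126.8 FPKM in TTPΔARE.

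Of 9 tested basophil genes 0 passed by limma and 3 had an unadjusted p under 0.05, all higher. Of all tested transcripts 11.6% were higher at that threshold. Csf2rb, the β chain shared by the receptors for IL-3, GM-CSF and IL-5, stood at 17.3 ± 0.564 and 19.5 ± 0.293 FPKM (SD, n = 4 each; log2 0.17, limma adjusted p = 0.0824), and Csf2rb2 at 7.46 ± 0.177 and 8.52 ± 0.334 FPKM (log2 0.18, adjusted p = 0.0887). Neither pair of groups overlapped. The reads of these paralogs may be shared. The basophil receptor Cd200r3 was at 0.0450 to 0.252 FPKM and Il4 at 0.1 to 0.348 FPKM, both overlapping between groups.

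Among ligands and signalling genes of the Kit and IgE pathways, 1 gene passed the test. Over all tested transcripts 2.01% rose and 1.99% fell. Kitl, the ligand of Kit, stood at 9.54, 8.93, 9.41 and 7.80 FPKM in wild-type and at 9.57, 11.4, 10.6 and 10.3 FPKM in TTPΔARE. The groups met without overlap, but the difference of log2 0.22 did not pass (limma adjusted p = 0.130). Of 3 tested growth factor genes 0 passed by limma, and only Kitl had an unadjusted p under 0.05. Of 21 Kit signalling genes 0 passed and 1, the kinase Jak2, had an unadjusted p under 0.05 (11.2 ± 0.698 and 13.6 ± 1.52 FPKM, log2 0.27, adjusted p = 0.0971). Their median was log2 -0.002. Of 19 IgE receptor signalling genes 1 fell and 0 rose by limma (2 lower and 1 higher at an unadjusted p under 0.05), with a median of log2 -0.004. That gene was Lat2, an adaptor below this receptor that B cells also use, at 13.8, 12.5, 12.7 and 12.5 FPKM in wild-type and 9.87, 9.90, 7.79 and 8.22 FPKM in TTPΔARE (log2 -0.51, SE 0.082, limma adjusted p = 0.00935). Fcer1g, the γ chain that the IgE receptor shares with other Fc receptors, was far above its partners at 50.9 ± 8.69 and 55.9 ± 7.89 FPKM (log2 0.14, adjusted p = 0.585).

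Of 29 other stem and progenitor genes tested, 4 rose and 1 fell, against 2.01% and 1.99% of all tested transcripts. The median over all 32 listed was log2 0.14. Myb, a transcription factor of immature blood cells, stood at 3.06, 3.38, 3.65 and 2.96 FPKM in wild-type and 4.85, 4.15, 4.42 and 4.14 FPKM in TTPΔARE (log2 0.38, SE 0.077, limma adjusted p = 0.0233). Cd93, a receptor of early progenitors and endothelium, went from 5.94 ± 0.325 to 8.06 ± 0.237 FPKM (SD, n = 4 each; log2 0.41, adjusted p = 0.00577). Angpt1 (log2 0.36), which encodes a ligand of the receptor Tek, and the cytokine receptor Flt3 (log2 0.33) rose as well. The ETS factor Fli1 fell by 0.32 on the log2 scale. Mpo, a granule enzyme of granulocyte progenitors, did not pass, at 1.51 ± 1.76 and 1.80 ± 0.992 FPKM (log2 0.42, adjusted p = 0.646). Mpo was highest in wild-type replicate 3, at 4.15 FPKM.

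Each member was taken as its transcript with the highest mean. The genes whose values ran closest to each member over the 8 spleens were found by Pearson r of log2(FPKM + 0.5), among transcripts of at least 1 FPKM. For Kit they were Nadkd1 (r = 0.989), Lta4h (0.987) and Aldh1a7 (0.985). For Gata2 they were Cnn1 (0.992), Mfap4 (0.990) and Cdc42ep2 (0.975). Cd34 was closest to Pdlim3 (0.987), Pqlc1 (0.978) and Batf3 (0.966), and Hdc to Cyth3 (0.978), F2rl3 (0.975) and Cldn5 (0.973). Cpa3 was closest to Mpv17l2 (0.978), Acbd6 (0.974) and Snx10 (0.972). Of these, Aldh1a7, Cnn1, Mfap4 and Cldn5 rose, with limma adjusted p = 0.0383, 0.0187, 0.0371 and 0.0432. With so few samples and so many transcripts, these values describe these libraries only. They span both genotypes, so a difference between the genotypes also enters r. The members had different nearest genes.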

How the data were processed

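RNA of 8 spleens, 4 per genotype, was sequenced, and the authors deposited FPKM per RefSeq transcript and sample. The submitters' processing notes name BWA and the build mm10. How fragments were counted, with which annotation and strand, and how reads matching several places were handled is not given in the sources used here. Groups follow the genotype labels, which give no batch or pairing.

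FPKM are not counts, so log2(FPKM + 0.5) was tested with limma 3.58.1 in R 4.3.3 (variance trend, two-sided), on the 16608 transcripts averaging 0.5 FPKM or more across samples, adjusted by Benjamini-Hochberg and called under 0.05. Single values were tested by exact two-sided permutation over 70 assignments. Depth was found by scanning for the value at which low FPKM of single-transcript genes gave whole fragments within 0.05: 53.4 to 58.2% did, against a median of 7.0 to 7.9% at other depths. Fragments of low members used this depth and a length within 3% of the annotated one. Simulated data were used to test the limma step, with the same 16608 transcripts and group sizes. Where 50 transcripts were changed 1.3-fold it recovered 54%, and of those changed 1.5-fold it recovered 86%. Recovery reached 96% for 2-fold and 98% for 3-fold changes; it made 172 calls, 5 of them false.

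The members and the 13 other gene lists were chosen with earlier results of these data known, so list counts are descriptions. Named are all members, symbols past the threshold, and per list up to 3 symbols of smallest p and the 1 of highest mean, plus 3 nearest genes per tested member; not all are printed. The mast cell proteases, Cd200r3, Il4, Mpo, and Adora3, Il1rl1 and Rab27b were named after their values were seen, and so were the motifs. In lists each symbol stands for its transcript with the highest mean. Alternatives were 2 other pseudocounts, 2 other filters, 2 scalings, 2 variance settings, an erythroid covariate, summing transcripts, and leaving out each sample. Python 3.11.15, numpy 2.4.6, pandas 2.3.3, scipy 1.17.1 and matplotlib 3.10.9 were used.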

Additional observations from a re-analysis of the deposited data

Results flagged for a closer look

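Of the 22 groups of 4 values, 1 per member transcript and genotype, 2 held a spleen far from the other 3, and both concern TTPΔARE replicate 2. In Gata2 it was the lowest of its group at 2.37 FPKM, where the others were at 2.66 to 2.69 FPKM. In Ms4a2 it was the highest at 0.751 FPKM, where the others were at 0.338 to 0.370 FPKM. The rule used marks about 1 in 20 groups by chance. Without this spleen Ms4a2 had a log2 difference of -0.13, and Gata2 of 0.28 (limma adjusted p = 0.0592).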

How the results depend on the processing

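Kit had a positive difference under all 18 alternatives tried for each transcript, and lost its call with the erythroid covariate (log2 0.40 and 0.27) and without the spleens named above (0.44 to 0.58 and 0.45 to 0.58 with 1 spleen left out). Cd34, Gata2, Hdc, Cpa3, Prss34 and Fcer1a kept their direction under each alternative that gave a value, but with the erythroid covariate Prss34 went from 0.305 to 0.038 and Fcer1a from 0.109 to 0.231, and other settings took Prss34 as high as 0.665. Mcpt8 turned to -0.009 with wild-type replicate 4 left out and -0.049 with TTPΔARE replicate 3 left out (-0.049 to 0.179 with 1 spleen left out). Ms4a2 turned to -0.023 with quantile normalization, -0.04 without wild-type replicate 3 or 4 and -0.13 without TTPΔARE replicate 2 (-0.13 to 0.088 with 1 spleen left out), and was 0.347 with the erythroid covariate. With the erythroid covariate the progenitor median was 0.27 and the granule and IgE receptor median 0.202 (0.378 and 0.091 without it), and 0 transcripts rose and 2 fell over the whole table (main 333 and 331). With 1 spleen left out, 94 to 446 rose and 104 to 331 fell; dropping wild-type replicate 4 gave 114 and 138, dropping TTPΔARE replicate 3 gave 94 and 104, and dropping TTPΔARE replicate 4 gave 118 and 136. The causes were not tested. The progenitor median was 0.29 to 0.48 with 1 spleen left out, and that of the granule and IgE receptor genes 0.06 to 0.16. Cpa3 had no value with a minimum mean of 1 FPKM. No paired analysis was made because the labels give no pairing of animals. Replicate numbers follow the order of the samples within each genotype and are not in the labels. At 3 to 32 fragments per spleen, small differences of the 5 lowest genes were not detectable at this depth.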

Other observations

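A few mast cell genes below the test's filter stood higher in TTPΔARE spleens and were picked after their values were seen. Of the 19 listed mast cell genes in the table, 14 had a positive difference, with a median of log2 0.04. Cma1 (-0.08), Ctsg (-0.12), Srgn (-0.13) and Ndst2 (-0.07) were among those with a negative one. Adora3, an adenosine receptor of mast cells, was at 0.259 to 0.408 FPKM in wild-type and 0.480 to 0.606 FPKM in TTPΔARE, without overlap. Such a rise without overlap was seen for 1 of these 19 genes, against 6.53% of all tested transcripts. Il1rl1, the receptor for IL-33, was at 0.264, 0.176, 0.551 and 0.245 FPKM in wild-type and 0.649, 0.441, 0.852 and 0.727 FPKM in TTPΔARE, where replicate 2 was below wild-type replicate 3. Rab27b, a GTPase of granule release, was at 0.293 ± 0.140 and 0.550 ± 0.125 FPKM (SD, n = 4 each), also with overlap. No test was made of the Adora3, Il1rl1 and Rab27b values.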
